A study of Mus musculus with 8 samples.

Results

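Genomic imprinting is the expression of a gene from only the maternal or only the paternal copy, set by DNA methylation laid down in the egg or sperm and kept through cell division. Imprinted genes lie in clusters, and many of them encode growth factors, growth inhibitors or long non-coding RNAs that are abundant in the fetus and are turned down in most adult tissues, the lung included. *H19*, *Igf2*, *Meg3*, *Peg3*, *Mest*, *Peg10*, *Sgce*, *Cdkn1c*, *Grb10* and *Impact* were followed here, 10 genes chosen by name from the 48709 of the deposited table. All 10 were found there by gene identifier, and 9 passed the filter on low counts that preceded the test. The libraries do not tell the maternal from the paternal copy, so every value below is the sum over both alleles.

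RNA had been sequenced from 8 mouse lung tumors, 4 *K-Ctrl* and 4 *K-Setd2KO*. All came from the Cre-inducible *K* model in a mixed B6J/129S4vJae background and were started in the lung by a lentivirus that delivers Cre and Cas9 to the infected cells. In *K-Ctrl* the viral guide RNA matched no mouse gene, and in *K-Setd2KO* it cut *Setd2*, which encodes the enzyme that adds the third methyl group to lysine-36 of histone H3. Guide editing is carried out cell by cell, and a tumor also holds host stroma and blood cells that the virus did not edit. The age of each mouse and which tumors shared a mouse are not given in the sources used here, so p-values measure the spread between these samples. The sample labels describe frozen tumors in one field and cell lines in another, and this was not resolved.

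Total counts ran from 5806599 to 21290402 per tumor. *Setd2* transcript itself, in counts scaled to library size (CPM), was at 140 ± 8.81 CPM (SD, n = 4) in *K-Ctrl* and 136 ± 15.5 CPM (SD, n = 4) in *K-Setd2KO*, with no difference called (edgeR adjusted p = 0.824), so the transcript level does not check the labels of a guide-edited gene. Alveolar type 2 cell markers such as *Sftpc* and *Sftpb* were abundant in every tumor, with a summed level of 43767 to 64797 CPM in *K-Ctrl* and 52775 to 73620 CPM in *K-Setd2KO*. Macrophage markers (5 genes, *Cd68* and *Csf1r* first) summed to 424 to 1422 CPM in *K-Ctrl* against 145 to 290 CPM in *K-Setd2KO*. Endothelial markers (6 genes, *Pecam1* and *Cdh5* first) summed to 434 to 1619 CPM against 162 to 418 CPM. Fibroblast markers (7 genes, *Col1a1* and *Col1a2* first) summed to 730 to 1700 CPM against 230 to 896 CPM. Epithelial markers (5 genes, *Epcam* and *Cdh1* first) summed to 1782 to 2761 CPM against 2526 to 3065 CPM, and cardiac muscle markers (4 genes, *Myh6* and *Tnnt2* first) to 79.3 to 254 CPM against 40.0 to 218 CPM. Called higher, beside 4.97% of all tested genes, were 2 of 5 epithelial and 1 of 6 alveolar type 2 markers. Called lower, beside 7.74% of all tested genes, were 4 of 5 macrophage, 2 of 6 endothelial, 1 of 7 fibroblast and 1 of 3 tested cardiac muscle markers. All 6 endothelial and all 5 macrophage markers, and 6 of 7 fibroblast markers, had a lower mean in *K-Setd2KO*. Values after ± are SD over the 4 tumors of a group throughout. Sex read from sex-linked transcripts was female in 1 *K-Ctrl* and 3 *K-Setd2KO* tumors.

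Several of these genes are hosts of microRNAs, and mature sequences are given because the seed sets which messages a microRNA can address. The libraries were made from poly(A) RNA and do not measure the mature microRNAs. The sequences are from RefSeq (GRCm38.p6), 5′ to 3′, with the seed (bases 2 to 8) in capitals. The *H19* hairpin gives miR-675 (7:142577112-142577133 for the 5p arm, minus strand), the *Igf2* gene holds miR-483, the *Mest* gene holds miR-335, and the *Meg3* gene holds miR-770. The host *Mirg* downstream of *Meg3* holds miR-453 and miR-496a, which share the seed GGUUGCC.
miR-675-5p: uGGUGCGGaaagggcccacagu
miR-675-3p: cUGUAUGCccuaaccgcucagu
miR-483-3p: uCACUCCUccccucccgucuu
miR-335-5p: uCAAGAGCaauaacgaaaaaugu
miR-770-5p: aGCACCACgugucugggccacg
miR-453: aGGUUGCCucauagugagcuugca
miR-496a-5p: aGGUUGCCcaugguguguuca

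Between *Meg3* and *Dio3* on chromosome 12 the RefSeq table listed 58 hairpins with 113 mature microRNAs. These held 104 different seeds, of which 9 were shared by 2 microRNAs each.

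RefSeq start-site windows of 300 bases around the transcription start were at hand for 5 of the 10 genes. For genes with several start sites, the windows shown here are those with the most CpG. 3 windows are shown, those of the neighbors *Dlk1* and *Meg3*, whose levels moved together over the tumors, and that of *Grb10*, which was lower in *K-Setd2KO*. Capitals mark the hexamer TGCCGC on either strand, which the imprint-keeping protein ZFP57 binds when methylated, and the cyclic AMP response element TGACGTCA. The motifs do not overlap each other in these windows.
Dlk1, chr12:109452573-109452872, plus strand: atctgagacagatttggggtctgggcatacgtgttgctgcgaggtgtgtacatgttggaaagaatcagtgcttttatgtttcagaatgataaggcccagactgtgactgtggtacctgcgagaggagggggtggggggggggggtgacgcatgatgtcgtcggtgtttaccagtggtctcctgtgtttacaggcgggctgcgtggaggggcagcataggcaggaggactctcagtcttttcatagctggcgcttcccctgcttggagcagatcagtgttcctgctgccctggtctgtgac
Meg3, chr12:109540746-109541045, plus strand: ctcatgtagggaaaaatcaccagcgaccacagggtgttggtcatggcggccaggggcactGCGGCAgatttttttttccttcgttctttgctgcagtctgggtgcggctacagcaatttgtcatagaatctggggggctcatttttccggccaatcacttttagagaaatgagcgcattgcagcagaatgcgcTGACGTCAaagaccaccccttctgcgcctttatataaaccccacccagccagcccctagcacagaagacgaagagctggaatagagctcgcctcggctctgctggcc
Grb10, chr11:12037371-12037670, minus strand: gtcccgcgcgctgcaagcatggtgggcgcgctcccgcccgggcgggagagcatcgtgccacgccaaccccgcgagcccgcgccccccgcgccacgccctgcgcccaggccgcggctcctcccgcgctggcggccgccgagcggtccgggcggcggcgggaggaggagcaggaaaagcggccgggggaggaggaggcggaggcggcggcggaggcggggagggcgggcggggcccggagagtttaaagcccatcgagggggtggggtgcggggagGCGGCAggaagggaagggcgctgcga

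The *Meg3* window held 13 CpG dinucleotides, the *Dlk1* window 9 and the *Grb10* window 45, against a median of 7 over all 32851 mouse windows of this length. The *Grb10* window had more CpG than 98.1% of them. A second *Grb10* window had 9 CpG and a second *Meg3* window 1, and neither held the hexamer or the response element. TGCCGC was found in 11.6% of all windows and TGACGTCA in 1.79%. Of the 5 genes with windows, 4 held TGCCGC in at least 1 of them, *Meg3*, *Grb10*, *Mest* and *Igf2*. This counts genes, most of them with several windows, whereas the shares above count single windows, so they cannot be compared. A TGACGTCA also stood in the window of *Peg3*, 1 of the 2 genes among these 5 that held it, while the *Dlk1* window held neither motif. A match is a run of letters and not a measured binding site.

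Levels differed more between the 10 genes than between the groups for most of them. Per kilobase of exon, the order in *K-Ctrl* was *Meg3* (23.9 ± 16.4 CPM per kb, SD, n = 4), *Impact* (13.6 ± 2.82), *Grb10* (6.34 ± 1.87), *Cdkn1c* (5.99 ± 3.91), *Sgce* (4.25 ± 0.686), *Peg10* (1.59 ± 0.415), *Igf2* (0.991 ± 0.255), *Mest* (0.979 ± 0.279), *Peg3* (0.283 ± 0.160) and *H19* (0.264 ± 0.135). The 4 tumors of neighbors in this order did not overlap between *Impact* and *Grb10*, between *Sgce* and *Peg10* and between *Mest* and *Peg3*, and all other neighbors overlapped. In *K-Setd2KO*, *Sgce* stood in the third place at 6.35 ± 0.438 CPM per kb and *Grb10* in the fifth at 2.78 ± 1.33. *Meg3* was above 94.6% of all tested genes per kilobase, averaged over the 8 tumors, and *Igf2* above 15.4%. *Igf2* and *H19*, the fetal growth factor and its non-coding neighbor, were among the low members in tumors of both groups.

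**Figure D1:**
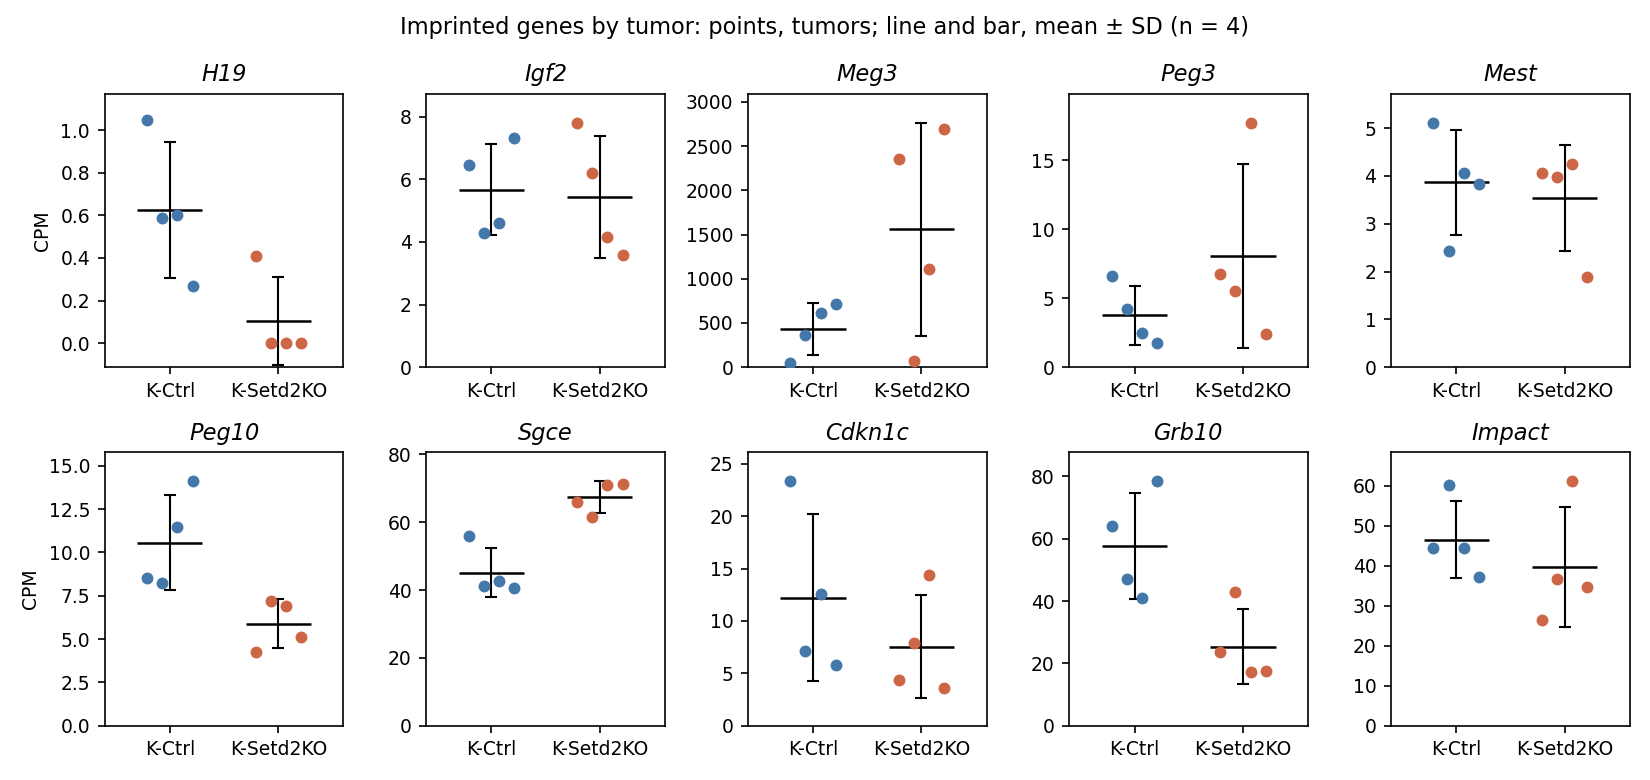
Each panel plots 1 gene in library-scaled counts (CPM, linear axis) for the 4 K-Ctrl tumors (blue) and the 4 K-Setd2KO tumors (orange), with the mean and SD of each group in black. Sgce is higher in every K-Setd2KO tumor and Peg10 lower in every one, Grb10 overlaps in 1 tumor, and Meg3 ranges from 47.5 to 2696 CPM.

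Of the 9 tested genes, 2 passed the test at an adjusted p of 0.05, *Sgce* higher and *Grb10* lower in *K-Setd2KO*. Over all 14929 genes tested the share called was 12.7%, with 4.97% higher and 7.74% lower. At an unadjusted p under 0.05 there were 3 of the 9, or 33.3%, beside 29.9% of all tested genes. The median log2 fold change (*K-Setd2KO* minus *K-Ctrl*) was -0.11 over the 9 genes and 0.03 over all tested genes. The groups did not overlap for *Sgce* and *Peg10*, 2 of the 9, where 20.3% of all tested genes did not overlap (9.06% higher, 11.2% lower). Both shares rest on few genes.

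**Figure D2:**
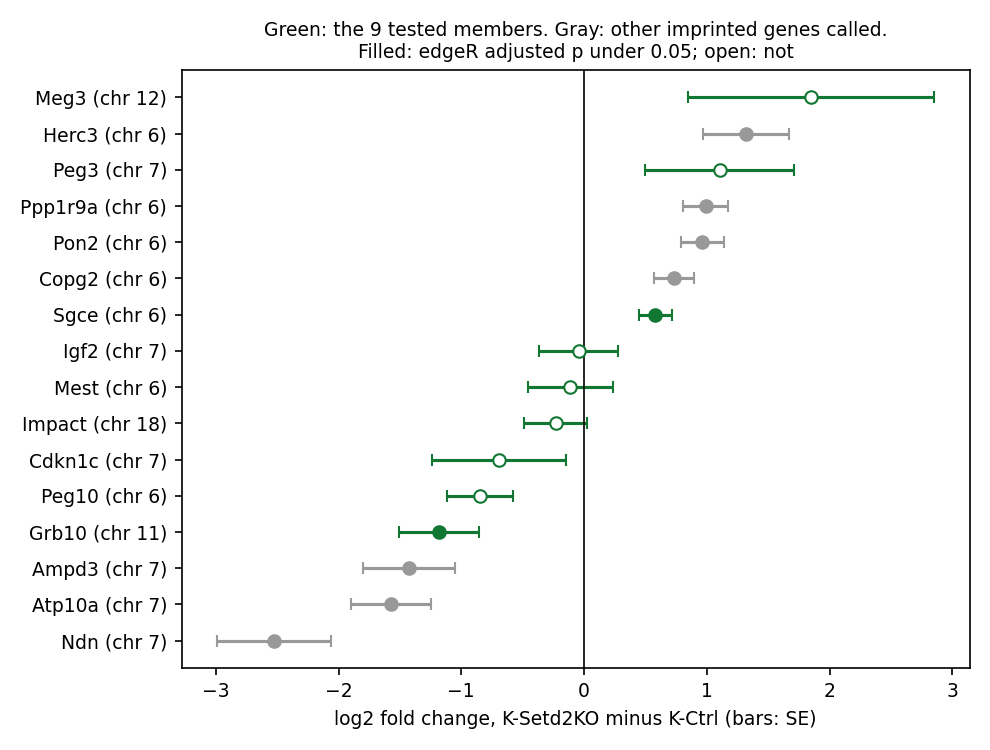
Log2 fold change (K-Setd2KO minus K-Ctrl, bars SE of the edgeR fit) of the 9 tested members (green) and of the 7 other imprinted genes that passed the test (gray), with filled points for an adjusted p under 0.05. Among the members only Sgce, at 0.58, and Grb10, at -1.18, are filled, and Meg3 has the widest bar.

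*Sgce* and *Peg10* are neighbors on chromosome 6 whose values differed between the groups in opposite directions. *Sgce* (ENSMUSG00000004631.15, 6:4674350-4747207, minus strand) encodes epsilon-sarcoglycan, a membrane protein of the dystrophin-associated complex. *Peg10* (ENSMUSG00000092035.8, 6:4747306-4760517, plus strand) encodes a protein derived from a retrotransposon, needed in the placenta. The genes run in opposite directions with 98 bases between them, and both are expressed from the paternal copy in mouse.

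*Sgce* was at 55.9, 41.1, 42.8 and 40.5 CPM in the *K-Ctrl* tumors 1 to 4 and at 66.0, 61.4, 71.0 and 71.2 CPM in the *K-Setd2KO* tumors 1 to 4. Every *K-Setd2KO* tumor was above every *K-Ctrl* tumor, the closest being *K-Ctrl* replicate 1. The means were 45.1 ± 7.28 and 67.4 ± 4.65 CPM (SD, n = 4 each), a rise of 1.495-fold. On the log2 scale the difference was 0.58 with a standard error of 0.13 (edgeR quasi-likelihood test, adjusted p = 0.0259), and the exact permutation test over tumors gave p = 0.0286, the smallest that 4 against 4 allows. The within-group SD of *Sgce* on the log2 scale was 0.17, smaller than in most genes, with 14.6% of tested genes below it. Leaving out 1 tumor ended the call in 5 of 8 cases, with adjusted p of 0.0673, 0.0838 and 0.0503 without *K-Ctrl* replicates 2, 3 and 4 and 0.0629 and 0.0552 without *K-Setd2KO* replicates 3 and 4.

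The values of *Peg10* lay in the other direction. It was at 8.495, 8.24, 11.4 and 14.1 CPM in *K-Ctrl* and at 4.26, 7.19, 6.92 and 5.13 CPM in *K-Setd2KO*, again without overlap. The means were 10.6 ± 2.77 and 5.88 ± 1.41 CPM (SD, n = 4 each). The log2 fold change of -0.84 (SE 0.27) did not pass the edgeR test (adjusted p = 0.0688), though the exact permutation p was 0.0286 and DESeq2 called it (adjusted p = 0.0225). In edgeR fits without 1 tumor the adjusted p ran from 0.0615 to 0.161.

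The ratio of the pair was computed after the values of both had been seen and is a description only. *Sgce* over *Peg10* was 6.58, 4.99, 3.74 and 2.87 in *K-Ctrl* and 15.5, 8.54, 10.3 and 13.9 in *K-Setd2KO*, a mean of 4.55 ± 1.61 against 12.04 ± 3.19. A ratio within a library is free of any scaling between libraries.

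Genes of the whole of chromosome 6 were raised in 3 of the 4 *K-Setd2KO* tumors. The median log2 difference from the *K-Ctrl* mean over 839 tested genes of that chromosome was 0.33, -0.03, 0.32 and 0.38 in *K-Setd2KO* replicates 1 to 4, and between -0.03 and 0.02 in the *K-Ctrl* tumors. Of these genes 15.4% were called higher in *K-Setd2KO*, against 4.35% on all other chromosomes. For the 30 tested genes within 5 Mb of *Peg10* the medians were 0.46, 0.23, 0.52 and 0.56. When every chromosome 6 gene was set against the level of its chromosome in each tumor, *Sgce* kept its sign but not its call (log2 fold change 0.32, adjusted p = 0.165), and *Peg10* was at -1.07 (adjusted p = 0.0515). In *K-Setd2KO* replicate 2, whose chromosome 6 level was within the range of the controls, *Sgce* was at 61.4 CPM, while the genes within 5 Mb of *Peg10* were at 0.23 there, above the control range of -0.09 to 0.09. The part of the chromosome 6 level in the *Sgce* difference was not tested beyond the values given here.

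**Figure D3:**
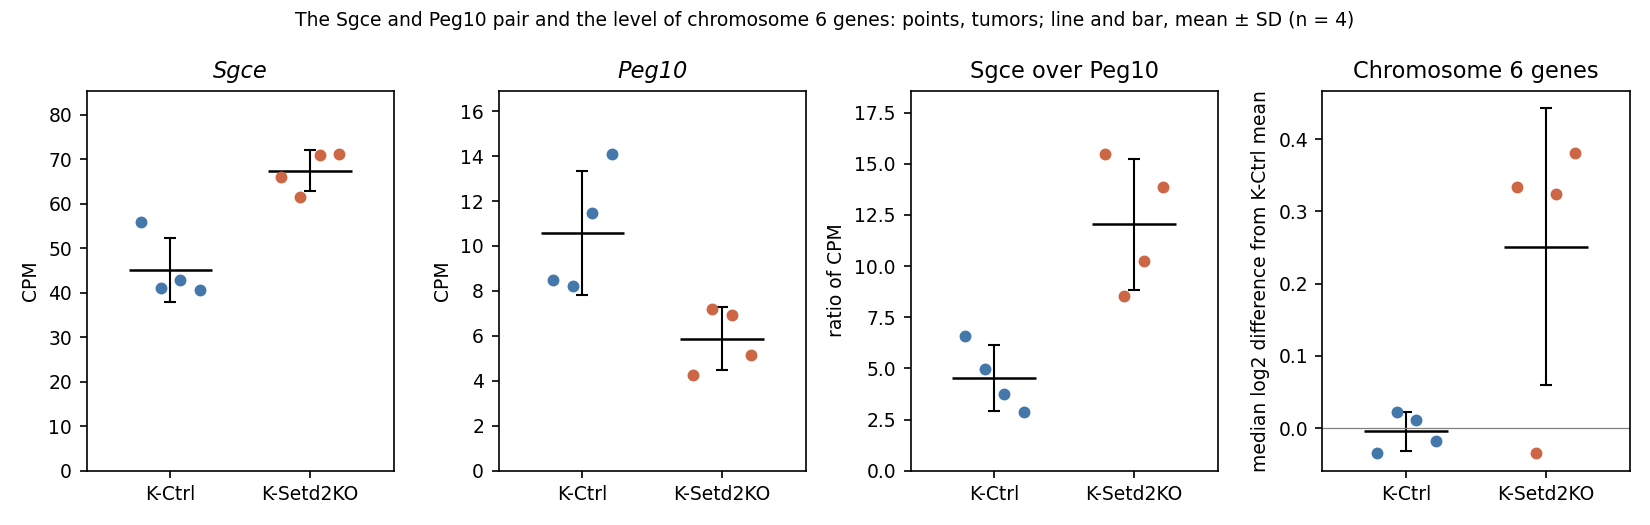
From left to right, Sgce and Peg10 in CPM, the ratio of both, and the median log2 difference of 839 chromosome 6 genes from the K-Ctrl mean, for each tumor (points) with group mean and SD. Sgce is higher and Peg10 lower in all 4 K-Setd2KO tumors, while the chromosome 6 level is raised in 3 of them and is -0.03 in replicate 2.

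Epsilon-sarcoglycan works in a complex, and 8 genes of the sarcoglycan and dystrophin complex were read beside it. Of these, 4 passed the filter, all 4 with negative log2 fold changes (7060 of the 14929 tested genes had one), and 1 was called (12.7% of all tested genes were). *Sgca*, alpha-sarcoglycan, named with its values in view, failed the filter with 0, 1, 0 and 0 reads in *K-Ctrl* and 9, 3, 5 and 4 reads in *K-Setd2KO*. *Dmd*, which encodes dystrophin, fell by 1.31 on the log2 scale (SE 0.32), with group means of 26.6 ± 8.17 CPM and 10.8 ± 3.68 CPM (edgeR adjusted p = 0.0305). It lost the call without *K-Ctrl* replicates 1, 2 and 3 (0.0781, 0.0556 and 0.0873) and *K-Setd2KO* replicate 4 (0.0593), and with sex as a term (0.0855). Smooth muscle markers (5 genes, *Acta2* and *Myh11* first), which mark cells rich in this complex, summed to 74.9 to 149 CPM in *K-Ctrl* and 40.3 to 124 CPM in *K-Setd2KO*, and their part in the result was not tested.

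*Mest*, the third of these genes on chromosome 6 (ENSMUSG00000051855.15, 6:30723547-30748465, plus strand), encodes an enzyme of the alpha/beta hydrolase fold that is abundant in fetal mesoderm. It was at 5.11, 2.44, 4.06 and 3.84 CPM in *K-Ctrl* and 4.06, 3.98, 4.25 and 1.88 CPM in *K-Setd2KO*. The groups overlapped and the log2 fold change was -0.11 (SE 0.35, edgeR adjusted p = 0.859). Its sign was not stable, at 0.05 without *K-Ctrl* replicate 1, 0.08 without *K-Setd2KO* replicate 4 and 0.21 with sex as a term. *Copg2*, a coat protein gene that overlaps the end of *Mest* on the other strand, rose by 0.73 on the log2 scale (SE 0.16, adjusted p = 0.0226), with means of 62.2 ± 5.15 CPM and 103 ± 22.3 CPM. Whether counting used the read strand is not given in the sources used here, so reads in the overlap of both genes cannot be assigned with certainty.

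*Grb10* carries the larger of both called differences. The gene (ENSMUSG00000020176.17, 11:11930508-12038683, minus strand) encodes an adaptor that binds the insulin and insulin-like growth factor receptors and restrains growth, and it is expressed from the maternal copy in most mouse tissues. It was at 64.0, 47.2, 40.9 and 78.4 CPM in *K-Ctrl* and at 23.5, 42.8, 17.4 and 17.5 CPM in *K-Setd2KO*. 3 *K-Setd2KO* tumors lay below all controls, and replicate 2, at 42.8, lay just above *K-Ctrl* replicate 3. The means were 57.6 ± 16.96 and 25.3 ± 12.05 CPM (SD, n = 4 each), a fall of 2.28-fold. The log2 fold change was -1.18 (SE 0.33, edgeR adjusted p = 0.0465), and the exact permutation test gave p = 0.0571.

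The *Grb10* call was close to the threshold. It held in 1 of 8 fits without 1 tumor, that without *K-Setd2KO* replicate 2 (adjusted p = 0.0115), and was lost without any of the 4 *K-Ctrl* tumors (0.105, 0.0680, 0.0640 and 0.0902) and without *K-Setd2KO* replicates 1, 3 and 4 (0.0960, 0.112 and 0.0946). Over the 13 tested genes within 5 Mb of *Grb10* the median log2 difference from the *K-Ctrl* mean was -0.23, -1.32, -0.27 and -0.87 in *K-Setd2KO* replicates 1 to 4 and -0.20 to 0.15 in the controls. With sex as a term *Grb10* was at -1.27 (adjusted p = 0.110), and with no filter on low counts at -1.17 (adjusted p = 0.0831). Over the 8 tumors the levels most like that of *Grb10* were those of *Tyms*, the thymidylate synthase gene (Pearson r = 0.988), and of *Gli3*, a Hedgehog pathway factor (r = 0.983). Proliferation markers (8 genes, *Mki67* and *Top2a* first) summed to 306 to 329 CPM in *K-Ctrl* and 116 to 230 CPM in *K-Setd2KO*, and the endothelial, macrophage and leukocyte sums were also lower in all *K-Setd2KO* tumors. All 8 proliferation, 6 endothelial, 5 macrophage and 4 leukocyte markers had a lower mean in *K-Setd2KO*, and none was at 0 in any tumor. Their part in the *Grb10* result was not tested. In bulk tumors, fewer cells of a type and less RNA per cell cannot be told apart.

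*Igf2*, the fetal insulin-like growth factor made from the paternal copy, was low in both groups. The gene (ENSMUSG00000048583.16, 7:142650766-142666816, minus strand) was at 6.46, 4.29, 4.62 and 7.32 CPM in *K-Ctrl* and 7.81, 6.20, 4.15 and 3.59 CPM in *K-Setd2KO*. The lowest and the highest tumor were both *K-Setd2KO*. Its log2 fold change was -0.04 (SE 0.32, edgeR adjusted p = 0.941), with a sign that changed to 0.06 with limma voom. It also turned positive, at 0.02 to 0.10, without *K-Ctrl* replicates 1 or 4 or without *K-Setd2KO* replicates 3 or 4.

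*H19*, the maternally expressed non-coding RNA that shares enhancers with *Igf2* 72622 bases away, was the rarest of the 10. The gene (ENSMUSG00000000031.15, 7:142575529-142578143, minus strand) had 17, 7, 13 and 3 reads in *K-Ctrl* and 8, 0, 0 and 0 reads in *K-Setd2KO*. In CPM these were 1.05, 0.588, 0.600 and 0.268 against 0.411, 0, 0 and 0. A count of 0 allows up to 3 reads, which is 0.229, 0.277 and 0.513 CPM in the 3 tumors without a read, so the limit in *K-Setd2KO* replicates 3 and 4 lies above the lowest control. It failed the filter and was not fitted, and the exact permutation test gave p = 0.0571. This limit covers counting error only.

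Of 8 genes for the related factor *Igf1*, the receptors, their substrates and the messenger-binding IMP proteins, 7 were tested and 1 was called (14.3%, beside 12.7% of all tested genes). *Igf2bp2*, which encodes an RNA-binding protein of *Igf2* messenger, fell by 1.54 on the log2 scale (SE 0.30, edgeR adjusted p = 0.0148). Its group means were 17.8 ± 4.51 CPM and 6.06 ± 2.06 CPM, without overlap of tumors. Without any 1 tumor its adjusted p stayed between 0.0138 and 0.0479.

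*Cdkn1c*, which encodes the cell cycle inhibitor p57 and is expressed from the maternal copy (ENSMUSG00000037664.13, 7:143458339-143461050, minus strand), varied widely. It was at 23.3, 7.14, 12.6 and 5.801 CPM in *K-Ctrl* and 4.31, 7.88, 14.4 and 3.59 CPM in *K-Setd2KO*. The highest tumor was *K-Ctrl* replicate 1, and the other 7 overlapped. Its log2 fold change was -0.69 (SE 0.55, edgeR adjusted p = 0.431), and 89.7% of tested genes had a smaller within-group SD. It was -0.18 without *K-Ctrl* replicate 1 and also with sex as a term, and -1.20 without *K-Setd2KO* replicate 3. Of the sister inhibitors, *Cdkn1b*, encoding p27 on chromosome 6, rose by 0.62 on the log2 scale (SE 0.18, adjusted p = 0.0488), with means of 116 ± 19.1 CPM and 179 ± 39.0 CPM. Against the level of its chromosome it was no longer called (0.36, adjusted p = 0.202), nor with a minimum of 10 counts per tumor (0.0539), and it kept the call in 1 of the 8 fits without 1 tumor, that without *K-Setd2KO* replicate 2 (0.0419).

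*Meg3* had the widest spread between tumors of the 9 tested genes. This maternally expressed long non-coding RNA (ENSMUSG00000021268.17, 12:109541001-109571726, plus strand) was at 47.5, 360, 614 and 711 CPM in *K-Ctrl* and at 2360, 71.9, 1112 and 2696 CPM in *K-Setd2KO*. 3 *K-Setd2KO* tumors were above all controls, and *K-Setd2KO* replicate 2 was below 3 of the 4 controls. The highest tumor was 56.8-fold above the lowest, and within groups the range was 14.98-fold and 37.5-fold. The means of 433 ± 297 and 1560 ± 1203 CPM (SD, n = 4 each) differed by 1.85 on the log2 scale (SE 1.00), which did not pass the test (edgeR adjusted p = 0.251, exact permutation p = 0.371). The within-group SD on the log2 scale was 2.14, and 99.6% of tested genes had a smaller one.

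*Rian* and *Mirg*, next to *Meg3*, were high and low in nearly the same tumors. *Rian*, a non-coding RNA downstream that hosts small nucleolar RNAs, was at 32.4, 253, 401 and 396 CPM in *K-Ctrl* and at 1419, 32.7, 376 and 1389 CPM in *K-Setd2KO*. *Mirg*, the microRNA host, was at 0.739, 7.23, 12.2 and 12.2 CPM and at 83.5, 0.918, 9.69 and 64.4 CPM. These were the 2 genes most like *Meg3* over the 8 tumors (Pearson r = 0.986 and 0.973), and neither was called (log2 fold change 1.57, SE 1.02, adjusted p = 0.340, and 2.29, SE 1.15, adjusted p = 0.220). *Rtl1*, a retrotransposon-derived gene expressed from the paternal copy on the other strand, was picked with its values in view and was at 0.123 to 2.23 CPM in *K-Ctrl* and 0.688 to 8.89 CPM in *K-Setd2KO* (1.74, SE 0.88, adjusted p = 0.221). *Meg3*, *Rian*, *Mirg* and *Rtl1* were lowest of their group in the same tumors, *K-Ctrl* replicate 1 and *K-Setd2KO* replicate 2. *Rtl1* lies opposite microRNA genes of the other strand, and with the strand setting not given in the sources used here its counts may hold reads of transcripts from there. *Dio3*, at the far end and named with its values in view, was too rare to compare, with 4, 1, 2 and 1 reads in *K-Ctrl* and 1, 2, 0 and 0 reads in *K-Setd2KO*.

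*Dlk1*, the paternally expressed gene at the other end, encodes a membrane protein related to Notch ligands that is made by immature cells, and was also picked with its values in view. It lies 77664 bases from *Meg3* (12:109452823-109463336, plus strand). It was at 0.308, 2.94, 12.4 and 18.4 CPM in *K-Ctrl* and at 204, 0.765, 497 and 2421 CPM in *K-Setd2KO*. The tumors thus ran over a 7865-fold range, from 5 to 14143 reads, with 3 *K-Setd2KO* tumors over 10 times above every control and 1 below 3 of the 4 controls. Its log2 fold change of 6.52 (SE 1.90) was the largest positive value of all 14929 tested genes, but it did not pass the edgeR test (adjusted p = 0.0545, exact permutation p = 0.143). DESeq2 called it (adjusted p = 0.000837), limma voom did not (0.403), and edgeR called it without *K-Setd2KO* replicate 2 (0.0180). In the fits without 1 tumor its log2 fold change ran from 4.78 to 7.18. The ratio of *Dlk1* to *Meg3* was uneven, from 0.00649 to 0.0259 in *K-Ctrl* and from 0.0106 to 0.898 in *K-Setd2KO*, whereas *Meg3* over *Rian* stayed between 1.42 and 2.96 in all 8 tumors.

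**Figure D4:**
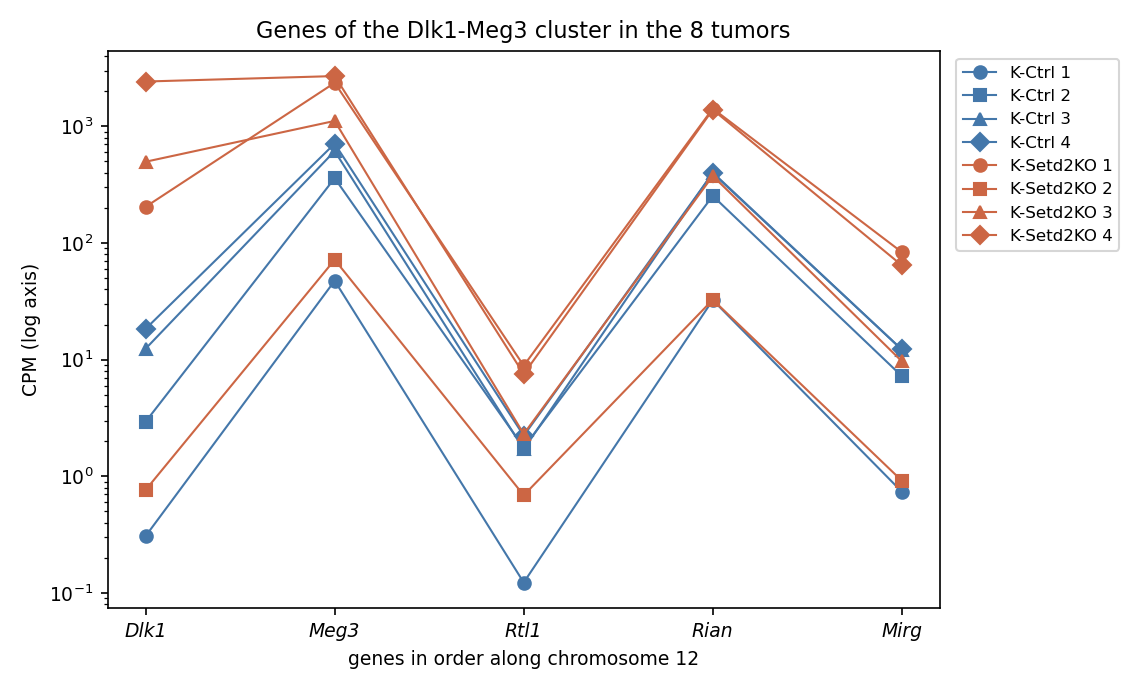
CPM on a log axis for Dlk1, Meg3, Rtl1, Rian and Mirg in their order along chromosome 12, with 1 line per tumor (K-Ctrl blue, K-Setd2KO orange). The lines run nearly parallel from Meg3 to Mirg, with K-Ctrl replicate 1 and K-Setd2KO replicate 2 lowest, and fan out over a 7865-fold range at Dlk1.

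Within 500 kb of *Meg3* the 4 tested neighbors, *Dlk1*, *Rtl1*, *Rian* and *Mirg*, had a median log2 fold change of 2.01. Taken over 5 Mb, genes around *Meg3* had no raised median in the *K-Setd2KO* tumors. Over 122 tested genes within 5 Mb the log2 difference from the *K-Ctrl* mean had a median of -0.13, -0.05, -0.57 and -0.50 in *K-Setd2KO* replicates 1 to 4, and of -0.18 to 0.21 in the controls. Fibroblast markers were lower in mean in *K-Setd2KO* for 6 of 7 genes, and their part in the *Meg3* and *Dlk1* values was not tested.

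*Peg3*, a paternally expressed zinc finger gene with roles in growth and nursing behavior (ENSMUSG00000002265.16, 7:6703892-6730431, minus strand), was low. It was at 6.59, 4.20, 2.49 and 1.78 CPM in *K-Ctrl* and 6.73, 5.51, 17.7 and 2.40 CPM in *K-Setd2KO*. Only *K-Setd2KO* replicate 3 stood apart, and the other 7 tumors overlapped. Its log2 fold change of 1.11 (SE 0.61) was not called (edgeR adjusted p = 0.256) and was 0.40 in the fit without 1 tumor that gave the lowest value.

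*Impact*, a paternally expressed gene whose protein holds back the amino acid sensing kinase GCN2 (ENSMUSG00000024423.5, 18:12972252-12992948, plus strand), was the second most abundant per kilobase. It was at 44.4, 60.1, 44.4 and 37.1 CPM in *K-Ctrl* and 26.5, 36.6, 61.1 and 34.6 CPM in *K-Setd2KO*. The log2 fold change was -0.23 (SE 0.26, edgeR adjusted p = 0.590), and the groups overlapped. Of 3 tested partners, *Eif2ak4*, which encodes GCN2 itself, rose by 0.51 on the log2 scale (SE 0.13, adjusted p = 0.0373). Its means were 56.7 ± 5.42 CPM and 80.6 ± 11.1 CPM, with all 4 *K-Setd2KO* tumors above all controls. It kept the call without *K-Ctrl* replicate 4 or *K-Setd2KO* replicate 4 (0.0390 and 0.0342) and lost it without any other tumor (0.0580 to 0.105) and with no filter on low counts (0.0580).

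Genes next to the 10 were also read. Within 500 kb of their spans, 8 of 56 tested neighbors were called (14.3%, beside 12.7% of all tested genes), namely *Lsp1*, *Zfp773*, *Tnfrsf26*, *Ikzf1*, *Lama3* and *Ttc39c* lower and *Copg2* and *Ppp1r9a* higher. Both higher neighbors lie on chromosome 6, next to *Mest* and to *Peg10* with *Sgce*. *Lsp1* and *Ikzf1*, next to *Igf2* with *H19* and to *Grb10*, are leukocyte genes, and leukocyte markers (4 genes, *Ptprc* and *Cd53* first) summed to 400 to 797 CPM in *K-Ctrl* and 138 to 186 CPM in *K-Setd2KO*. The part of leukocytes in the lower values of these or the other neighbors was not tested. The 4 tested neighbors of *Meg3* are *Dlk1*, *Rian*, *Mirg* and *Rtl1*, and none was called by edgeR. Like *Copg2* and *Ppp1r9a*, they also belong to the wider list below.

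In a wider list of 63 other imprinted genes, 4 had no read in any tumor and 43 were tested, with 7 called (4 higher, 3 lower), 16.3% against 12.7% of all tested genes. At an unadjusted p under 0.05 there were 12 (27.9%, beside 29.9% of all tested genes), and the median log2 fold change was 0.20. 1 of the 63, *Dcn*, is also among the fibroblast markers.

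The 4 higher genes are among 8 tested on chromosome 6, and the 3 lower genes among 14 tested on chromosome 7. Of all 839 tested genes of chromosome 6, 15.4% were called higher. Over the tested genes of all chromosomes 7.74% were called lower, and the share for chromosome 7 alone was not computed. These chromosomes hold many of the listed genes, and the placing of the calls was not tested. *Ppp1r9a*, encoding the actin-binding protein neurabin, rose by 0.99 on the log2 scale (SE 0.18, edgeR adjusted p = 0.0124), from a mean of 289 ± 36.7 CPM to 574 ± 124 CPM. *Pon2*, a paraoxonase gene, rose by 0.96 (SE 0.18, adjusted p = 0.0126), from 191 ± 11.2 CPM to 372 ± 85.6 CPM. Both lie downstream of *Peg10* in the same cluster and were lowest among *K-Setd2KO* tumors in replicate 2, at 409 and 246 CPM. Against the level of chromosome 6 they were still called, at 0.71 (adjusted p = 0.0159) and 0.68 (adjusted p = 0.0116), as was *Copg2* at 0.46 (0.0352). That level is the median of the whole chromosome, 0.33, -0.03, 0.32 and 0.38 in *K-Setd2KO* replicates 1 to 4. Genes within 5 Mb of *Peg10* stood at 0.46, 0.23, 0.52 and 0.56. The fit thus does not set *Ppp1r9a* and *Pon2* against their own region. *Herc3*, a ubiquitin ligase gene around the imprinted *Nap1l5*, was at 18.8 to 34.5 CPM in *K-Ctrl* and 38.7 to 110 CPM in *K-Setd2KO* (1.32, SE 0.35, adjusted p = 0.0414), and lost its call against the level of its chromosome (1.05, adjusted p = 0.0722). Leaving out 1 tumor kept the calls of *Ppp1r9a* and *Pon2* in all 8 fits. It ended that of *Copg2* without *K-Ctrl* replicates 1 and 3 and *K-Setd2KO* replicate 3 (0.0634, 0.0725 and 0.0537) and that of *Herc3* without *K-Ctrl* replicates 1, 3 and 4 and *K-Setd2KO* replicates 1 and 3 (0.0562 to 0.112). With sex as a term both lost the call, *Copg2* at 0.69 (adjusted p = 0.0641) and *Herc3* at 1.38 (0.0561), and *Herc3* also with no filter on low counts (1.32, adjusted p = 0.0680).

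Genes of chromosome 7 as a whole stayed between -0.05 and 0.07 of the control level in every tumor. Of the 3 lower genes, *Ndn*, encoding the growth suppressor necdin, was at 5.42, 4.20, 3.42 and 1.87 CPM in *K-Ctrl* and 0.719, 0.535, 0.369 and 1.03 CPM in *K-Setd2KO* (log2 fold change -2.52, SE 0.46, edgeR adjusted p = 0.0124). *Atp10a*, a phospholipid flippase gene of the same Prader-Willi and Angelman region, fell by 1.57 (SE 0.33, adjusted p = 0.0177), from 33.8 ± 6.82 CPM to 11.3 ± 5.81 CPM. *Ampd3*, an AMP deaminase gene active in red cells, fell by 1.42 (SE 0.37, adjusted p = 0.0392), from 30.3 ± 5.43 CPM to 11.5 ± 6.69 CPM. None of the 3 overlapped between the groups. The *Ndn* values in *K-Setd2KO* replicates 1 to 4 rest on only 14, 7, 4 and 6 reads. In replicate 3 its 0.369 CPM is near the 0.277 CPM that a count of 0 allows there. *Ndn* was called in all 8 fits without 1 tumor, *Atp10a* in all but that without *K-Ctrl* replicate 3 (0.0528), and *Ampd3* without *K-Ctrl* replicate 4 or *K-Setd2KO* replicate 4 alone (0.0410 and 0.0214, the other 6 between 0.0544 and 0.0980). Erythroid markers (5 genes, *Hba-a1* and *Hba-a2* first) summed to 150 to 805 CPM in *K-Ctrl* and 76.4 to 202 CPM in *K-Setd2KO*. Mesothelial markers (4 genes, *Msln* and *Upk3b* first), of which *Upk3b* had no read in 1 tumor, summed to 18.8 to 79.5 CPM and 2.37 to 16.1 CPM. All markers of both lists had a lower mean in *K-Setd2KO*. Called lower were 0 of 5 erythroid and 3 of 4 mesothelial markers, beside 7.74% of all tested genes. The part of these cells in the 3 results was not tested.

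**Figure D5:**
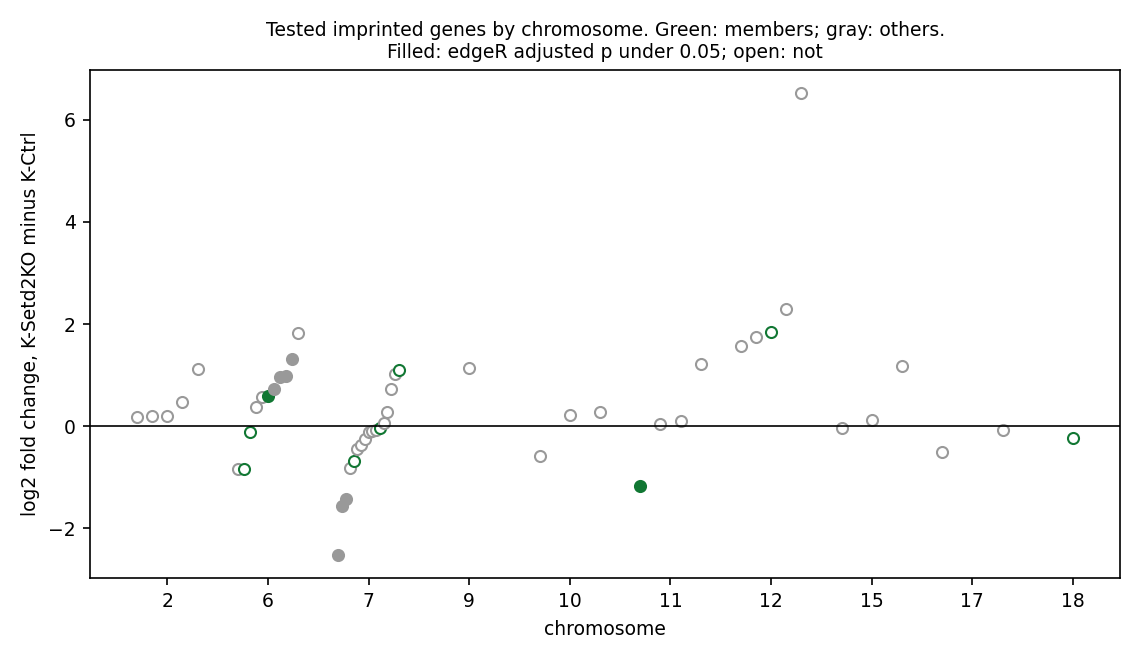
Log2 fold change (K-Setd2KO minus K-Ctrl) of every tested imprinted gene by chromosome, members green and others gray, with filled points for an edgeR adjusted p under 0.05. The 5 genes called higher, Sgce among them, are on chromosome 6, while 3 of the 4 called lower are on chromosome 7 and Grb10 is on chromosome 11. Of all tested genes on chromosome 6, 15.4% were called higher, and of all tested genes on any chromosome 7.74% were called lower. The highest point, at 6.52 on chromosome 12, is Dlk1.

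Of 21 genes that set, keep or read imprints, 18 were tested and 0 were called by edgeR, against 12.7% of all tested genes. At an unadjusted p under 0.05 there were 5 (27.8%, beside 29.9% of all tested genes), and DESeq2 called 2 and limma voom 1. *Dnmt1*, the maintenance DNA methyltransferase, was named with its values in view. It was at 82.9 to 108 CPM in *K-Ctrl* and 52.7 to 78.7 CPM in *K-Setd2KO*, without overlap (log2 fold change -0.50, SE 0.15, edgeR adjusted p = 0.0515). *Zfp57*, named for its hexamer with its values in view, was at 43.0 to 69.2 CPM and 65.0 to 74.1 CPM (0.38, SE 0.16, adjusted p = 0.148).

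The genes most like each member by Pearson r over the 8 tumors were members of the same cluster for *Meg3* alone. For *Sgce* they were *Tsnax* (r = 0.987) and *Prr15* (r = 0.979), for *Peg10* 1810034E14Rik (r = 0.956) and *Mast3* (r = 0.935), for *Igf2* *Dock1* (r = 0.952) and *Nos3* (r = 0.940), and for *Mest* *Lpin2* (r = 0.957) and *Setd3* (r = 0.952). For *Cdkn1c* they were *March2* (r = 0.985) and *Fam13c* (r = 0.974), for *Peg3* *Gm16124* (r = 0.962) and *Gm43923* (r = 0.955), and for *Impact* *Nudt19* (r = 0.961) and *Gpbp1l1* (r = 0.955). With 8 tumors of different depth and 14929 genes to choose from, values of this size are a description.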

How the data were processed

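Poly(A) RNA of 8 tumors was sequenced as read pairs. The authors deposited 1 table of raw counts per gene (48709 genes, GRCm38 coordinates, no normalization). The submitters' processing notes name STAR 2.5.2b, featureCounts 1.5.0-p1 and GRCm38.p4. The strand setting is not given in the sources used here. Symbols came from GENCODE M21, which held 99.3% of the identifiers.

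Genotypes were compared in R 4.3.3 with edgeR 4.0.16 (filterByExpr, TMM factors, robust quasi-likelihood fit, no covariate) and Benjamini-Hochberg adjustment over the 14929 genes kept, with calls at an adjusted p of 0.05. CPM used TMM-scaled library sizes, and each SE is |log2 fold change| over √F. Single genes also had an exact permutation test (two-sided, 70 assignments of tumors). DESeq2 1.42.0 and limma voom 3.58.1, other scalings and filters, a replicate block, a sex term, a chromosome 6 offset and leaving out each tumor were alternatives. A limit of 3 counts is 0.138 to 0.513 CPM. The fit was tested on simulated data.

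The members and lists were chosen with earlier results of these data known. Genes named are the members, called genes of the lists, and the 2 genes most like each member, with others marked as named with their values in view. The result of 1 further marker list is not reported here.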

Additional observations from a re-analysis of the deposited data

Results flagged for a closer look

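Within groups of 4 tumors, 1 value stood apart from the other 3 by Dixon's criterion in 6 of the 50 groups examined (25 genes), where chance gives about 2.5. *H19* was at 0.411 CPM in *K-Setd2KO* replicate 1 and at 0 in the other 3 tumors of the group, where a count of 0 allows up to 0.513 CPM in replicate 4, so it is not shown to stand apart. *Mest* was at 1.88 CPM in *K-Setd2KO* replicate 4, with the next value at 3.98 CPM. *Sgce* was at 55.9 CPM in *K-Ctrl* replicate 1, the control nearest to the *K-Setd2KO* tumors, with the next at 42.8 CPM. *Pon2* was at 246 CPM in *K-Setd2KO* replicate 2, the tumor without the raised chromosome 6 level, with the next at 403 CPM. *Herc3* was at 110 CPM in *K-Setd2KO* replicate 3, with the next at 48.5 CPM. *Ampd3* was at 22.2 CPM in *K-Ctrl* replicate 4, with the next at 31.7 CPM.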

How the results depend on the processing

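Among all genes, 1897 were called in the reported fit, 3194 with DESeq2 (all 1897 among them), 1237 with sex as a term and 763 to 2058 when 1 tumor was left out. The lowest of these was without *K-Ctrl* replicate 3. Of the 10 members 2 were called, 1 with no filter on low counts, 1 with sex as a term, 1 with the chromosome 6 offset and 0 to 2 without 1 tumor. The 0 came without *K-Ctrl* replicates 2, 3 or 4 or *K-Setd2KO* replicates 3 or 4. The 7 other imprinted genes called became 3 to 9 without 1 tumor, the lowest without *K-Ctrl* replicate 3. Imprint-keeping genes called went from 0 to 2 with DESeq2, 1 with limma voom, 1 with a minimum of 10 counts per tumor and 0 to 2 without 1 tumor. The 4 partner genes called became 1 to 3 without 1 tumor. The 8 neighbors called became 15 with DESeq2, 5 with sex as a term and 4 to 12 without 1 tumor. The chromosome 6 level, 0.27 as the median log2 fold change, was 0.00988 with the chromosome 6 offset, which removes it by construction, and 0.18 to 0.36 without 1 tumor.

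A replicate block was fitted because the labels number tumors 1 to 4 in both groups. Deviations of same-numbered tumors correlated at -0.07, -0.03, 0.19 and -0.02, so the numbers were not taken to pair them. With the replicate block 0 members, 4 other imprinted genes and 1 partner gene were called.

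The sign of *Igf2* (-0.04) turned to 0.0600 with limma voom and to 0.0232, 0.10, 0.0703 and 0.0961 without *K-Ctrl* replicates 1 and 4 and *K-Setd2KO* replicates 3 and 4 (lowest -0.27, without *K-Setd2KO* replicate 1). That of *Mest* (-0.11) turned to 0.21 with sex as a term and to 0.0492 and 0.0755 without *K-Ctrl* replicate 1 and *K-Setd2KO* replicate 4 (lowest -0.28, without *K-Ctrl* replicate 2). The cause was not tested. Depth limits *H19*, with 3 reads worth 0.513 CPM in the shallowest tumor.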
